A study of Homo sapiens with 8 samples.

Results

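Histone genes were followed in poly(A)-selected RNA from an ovarian cancer line with and without BRCA1, before and after a histone deacetylase inhibitor. The members were the genes whose symbols begin with HIST1, HIST2, HIST3, HIST4, H1F, H2AF or H3F, which gave 91 of the 25369 named genes counted. They comprised 67 clustered core genes (HIST symbols of the H2A, H2B, H3 and H4 families), 6 clustered linker genes (HIST1H1 symbols), 5 stand-alone H1F symbols and 13 replacement variant symbols (H2AF and H3F). UWB1.289 is a line from a high grade serous ovarian cancer with a truncating BRCA1 mutation and no intact copy (BRCA1-null), and BRCA1+ is the same line transduced with BRCA1. Each line was treated for 24 h with the DMSO vehicle or with 0.5 µM entinostat, an inhibitor of class I histone deacetylases, and each of the 4 groups had 2 libraries. Both lines therefore share the UWB1.289 background and its mutated allele, and the BRCA1+ line carries the added gene as well. The comparisons describe how the RNA differed between the lines, with the inhibitor and in their combination. Each BRCA1 status is represented by a single line. Its effect therefore cannot be told apart from that of transduction or of any other difference between the lines. The sources do not say that the 2 libraries of a group came from separate cultures, so the p-values measure the spread between these libraries, which may be technical.

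Core histones H2A, H2B, H3 and H4 form the nucleosome, and linker histone H1 binds the DNA where it enters and leaves. The clustered genes are replication-dependent: they are transcribed mainly in S phase, lack introns, and their mRNA normally ends at a stem-loop that is bound by SLBP, not in a poly(A) tail. Replacement variants and the stand-alone linker histones are transcribed outside S phase too and carry a poly(A) tail. A poly(A)-selected library therefore holds the tailed forms of clustered histone mRNA and whatever tailless mRNA is carried over, and these forms were not distinguished here.

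The 3′ end that sets the clustered genes apart can be read from the genome. A stem-loop was defined by its letters as a 6-base stem arm starting GG, a 4-base loop starting TT and the reverse complement of the first arm, within 150 bases after the stop codon on the coding strand. Of the 91 members, 77 could be matched to the gene annotation (GENCODE, GRCh37, the build of the counts). The stem-loop was present in 57 of 62 clustered genes (91.9%), in 1 of 15 others, and in 6 of 19702 other coding genes (0.0305%). The one match outside the clusters was H2AFX, a gene known to make both stem-loop and polyadenylated mRNA. The lines show, 5′ to 3′ on the coding strand of GRCh37 with the 16-base stem-loop in capitals, the most abundant clustered gene, the clustered gene that differed between the lines in both treatments, the most abundant clustered H4 and linker genes, and H2AFX.
HIST1H2BK (chr6:27114136-27114165, minus strand): ccaaaGGCTCTTTTAAGAGCCacttaaatt
HIST2H2BE (chr1:149857729-149857758, minus strand): ccaaaGGCTCTTTTCAGAGCCacccaccta
HIST1H4C (chr6:26104540-26104569, plus strand): ccaaaGGCCCTTTTCAGGGCCgctcacaaa
HIST1H1C (chr6:26055963-26055992, minus strand): caaaaGGCTCTTTTCAGAGCCaccactgat
H2AFX (chr11:118965599-118965628, minus strand): acaaaGGCCCTTTTAAGGGCCaccaccgcc
The stem arm of H2AFX has the same letters as that of HIST1H4C. These elements lie after the stop codon. The gene model counted for HIST1H2BK (chr6:27106072-27114637) covers 839 bases of a longer span and continues past its stem-loop. A match of letters is a description of the sequence and says nothing about which 3′ end was used in these cells.

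The promoters of the clustered genes also shared letters that the choice of members did not use. In the 250 bases before the start of the gene model, on either strand, the H2B octamer ATTTGCAT (a site of the octamer-binding factors) was found in 15 of 20 clustered H2B genes, 11 of 16 H2A genes and 1 of 25 H3 and H4 genes, against 1.43% of 24960 other genes. Paired H2A and H2B genes that face away from each other share part of this window, so these counts are not independent. The 1 match among H3 and H4 genes was HIST1H3D, whose window is the same as that of the H2A gene HIST1H2AD. The H1 box AAACACA was found in 6 of 6 clustered linker genes against 4.599% of other genes. CCAAT was found in 53 of 61 clustered core genes and 32.3% of other genes, and the TATA letters TATAAA in 39 of 61 and 9.92%. The 150 bases before 3 clustered genes show these arrangements, with every match to the listed motifs, read on either strand, in capitals.
HIST1H2BK (chr6:27114638-27114787, minus strand): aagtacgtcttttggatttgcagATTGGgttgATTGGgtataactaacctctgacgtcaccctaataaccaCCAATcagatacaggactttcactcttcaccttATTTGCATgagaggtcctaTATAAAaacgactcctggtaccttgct
HIST2H2BE (chr1:149858233-149858382, minus strand): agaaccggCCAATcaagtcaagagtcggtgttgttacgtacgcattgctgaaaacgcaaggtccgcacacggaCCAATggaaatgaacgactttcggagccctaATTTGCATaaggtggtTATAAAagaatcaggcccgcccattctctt
HIST1H1C (chr6:26056700-26056849, minus strand): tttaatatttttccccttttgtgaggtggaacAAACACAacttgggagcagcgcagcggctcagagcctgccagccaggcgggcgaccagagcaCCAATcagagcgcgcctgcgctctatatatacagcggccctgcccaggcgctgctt
HIST1H2BK and HIST2H2BE both had CCAAT, the octamer and TATAAA in that order, whereas HIST1H1C had the H1 box and CCAAT only.

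Library totals ranged from 31900158 to 53549893 counts. BRCA1, the gene that separates the lines, was at 95.6 ± 4.63 CPM (counts per 1000000 of scaled library size; SD, n = 2) in BRCA1+ DMSO cells and at 21.7 ± 1.02 CPM in BRCA1-null DMSO cells, which fits the labels (log2 fold change −2.14, adjusted p = 5.46e-07). Of 9 epithelial and ovarian carcinoma markers, 8 averaged at least 1 CPM, with summed levels of 13999 to 18436 CPM, and WT1 was at 0.241 CPM. Of 8 markers of immune, fibroblast and endothelial cells, 5 averaged at least 1 CPM, DCN was listed with 0 counts in all 8 libraries, and CD3E and PDGFRB were at 0.0152 and 0.0311 CPM. These markers summed to 20.9 and 24.9 CPM in untreated BRCA1+ cells and to 39.6 and 39.9 CPM after treatment. The BRCA1-null sums were 39.5 and 37.4 CPM, then 64.1 and 51.4 CPM. Their part in the histone results was not tested. In clustered histone RNA, both BRCA1-null libraries numbered 1 stood above their partners, as given below.

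Most histone counts came from the replacement variants. Counted once per shared read, these supplied 88.4% to 93.9% of all histone CPM in the 8 libraries, the stand-alone linker histones 4.15% to 8.16%, and all 73 clustered genes together 1.94% to 3.74%. Per length of gene model (CPM per kilobase, mean of the 8 libraries), the H3 replacement gene H3F3A stood highest at 361, followed by H2AFZ at 309, H3F3B at 122, H2AFX at 110 and H2AFY at 107. H1F0 (29.4) and H1FX (27.6) followed, and HIST1H2BK, at 19.2 CPM per kilobase, was the highest clustered gene. The next clustered genes on this scale were HIST3H2A at 8.07, HIST1H4C at 5.59 and HIST2H2BC at 5.06. HIST2H2BE, with a gene model of 2223 bases, was at only 0.679 CPM per kilobase although it was among the 10 clustered genes with the most counts.

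**Figure D1:**
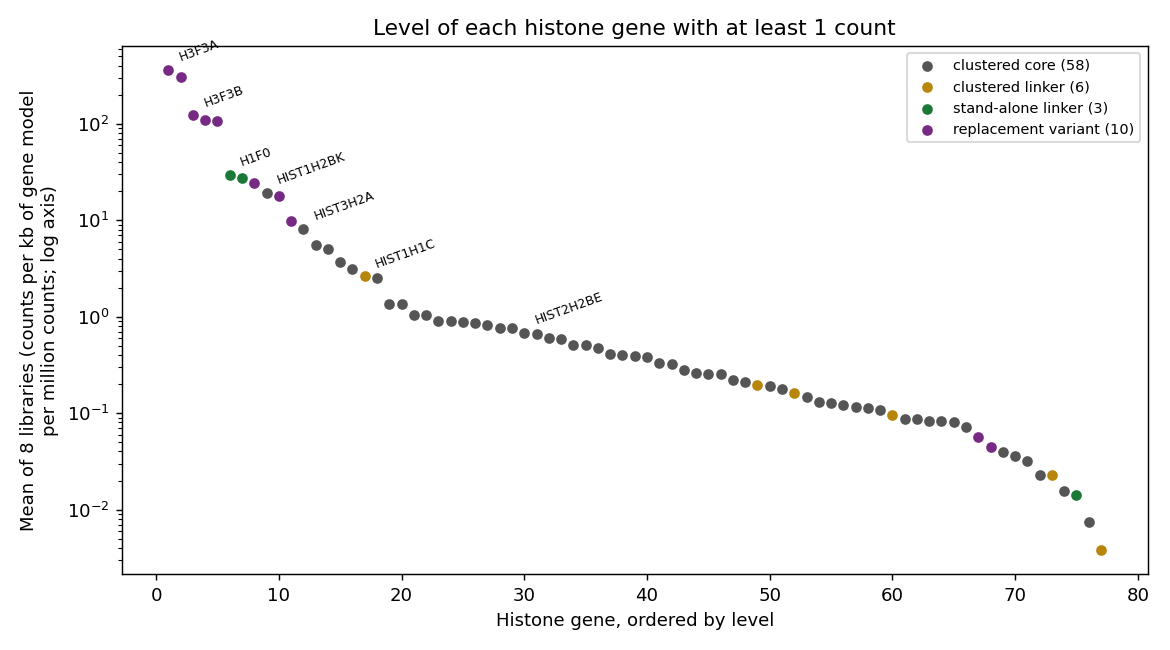
Each point is one histone gene with at least 1 count, placed from the highest to the lowest level. The vertical log axis is the mean over 8 libraries in CPM per kilobase of gene model. Purple replacement variants hold the first 5 places (361 to 107), green H1F0 and H1FX the next 2, and grey clustered core genes fill most places below 20. H1FX-AS1 and entries that repeat the reads of another gene are left out.

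Every member was accounted for. Of the 91, 10 had no count in any library (9 clustered core genes and the oocyte linker gene H1FOO), and 21, including those 10, had no more than 3 counts in any library. A count of 0 allows a level of up to 3 counts, which is 0.0552 to 0.0946 CPM in these libraries and covers counting error only. This limit may not hold for the copy pairs HIST2H4A and HIST2H4B, HIST2H3A and HIST2H3C, and HIST2H2AA3 and HIST2H2AA4, all listed at 0, since each pair shares 1 span in the files and how reads of such copies were assigned is not given in the sources used here. The filter on low counts left 42 members to test: 29 clustered core genes, HIST1H1C, 3 stand-alone symbols (H1F0, H1FX and its antisense RNA H1FX-AS1) and 9 replacement symbols. The other 39 members with counts never exceeded 15 in a library, among them the testis linker gene H1FNT and H3F3C. Several entries were not separate measurements. H3F3AP4 repeated the reads of H3F3A almost exactly, H2AFB1, H2AFB2 and H2AFB3 had identical counts, and HIST2H2BC lies within the span listed for HIST2H2AA3 and HIST2H2AA4. Clustered genes of one family are nearly identical in their coding sequence, so the split of reads among them is uncertain.

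Summed over the 73 clustered genes, BRCA1+ DMSO libraries held 41.3 and 36.5 CPM and BRCA1+ entinostat libraries 34.4 and 33.6 CPM. BRCA1-null DMSO libraries held 66.6 and 41.7 CPM, and BRCA1-null entinostat libraries 58.6 and 37.0 CPM. The BRCA1-null libraries numbered 1 were thus 1.60 and 1.58 times their partners, whereas the BRCA1+ partners differed by 1.13 and 1.02 times. The ratio of BRCA1-null to BRCA1+ in DMSO was 1.61 between the libraries numbered 1 and 1.14 between those numbered 2, and in entinostat 1.71 and 1.10. Entinostat libraries were below the DMSO libraries of the same line and number in 4 of 4 pairs, at ratios of 0.832, 0.922, 0.881 and 0.887. The H2A, H2B and H3 sums were each lower in all 4 pairs. The H4 sum was higher with entinostat except in BRCA1+ number 1 (DMSO 5.38 CPM, entinostat 4.92 CPM). The linker sum was higher except in BRCA1-null number 2 (DMSO 2.21 CPM, entinostat 2.11 CPM). The replacement variant sum was lower in all 4 pairs as well. Its log2 ratio of group means was −0.128 in BRCA1+ and −0.0734 in BRCA1-null cells. The clustered sum gave −0.194 and −0.179. In bulk RNA, fewer cells in S phase and less RNA per cell cannot be told apart.

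H2B genes made up the largest share of the clustered sum, from 19.1 to 42.6 CPM, and HIST1H2BK alone supplied 11.04 to 25.8 CPM. H2A genes held 5.33 to 11.9 CPM, H4 genes 3.20 to 6.29 CPM, H3 genes 2.05 to 3.76 CPM and the linker genes 1.79 to 2.86 CPM. H4 genes were higher in the library numbered 1 in all 4 groups, by 1.30 to 1.88 times. H2A genes were higher in that library only in the BRCA1-null groups, by 1.41 and 1.43 times, and were at 0.939 and 0.896 of their partner in the BRCA1+ groups.

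**Figure D2:**
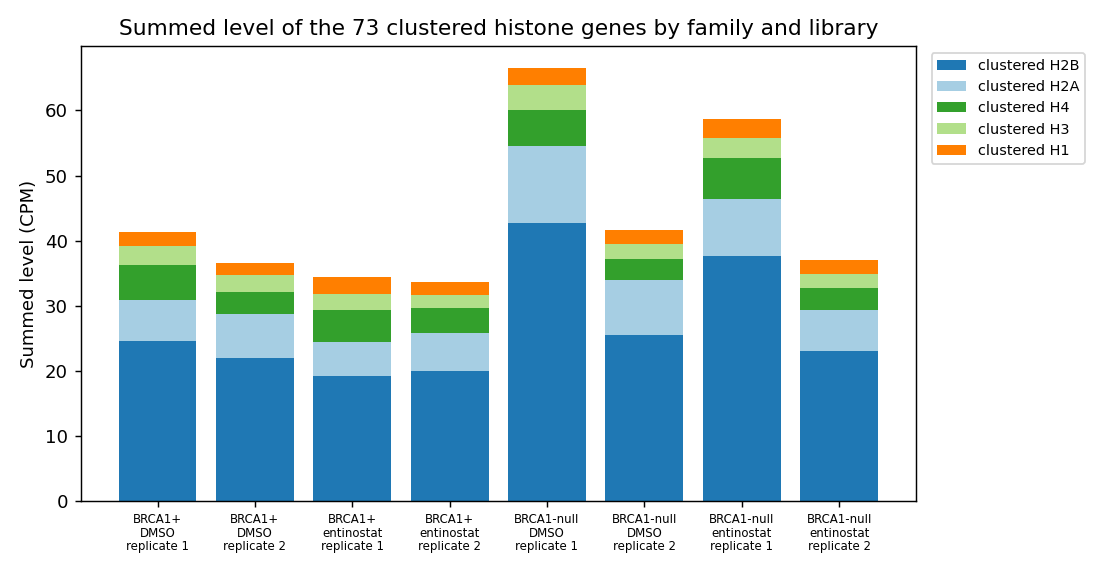
Stacked bars give the summed level of the 73 clustered histone genes in each of the 8 libraries, in CPM, split by family. H2B is the largest part of each bar, and the BRCA1-null replicate 1 bars (66.6 and 58.6 CPM) stand above the other 6 (33.6 to 41.7 CPM).

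Between the lines, the clearest differences were a higher level of the linker histone gene H1F0 in BRCA1-null cells and lower levels of H2AFY and H2AFX. In DMSO, 11 of 42 tested histone genes were called at an adjusted p under 0.05 (8 higher and 3 lower in BRCA1-null), which is 26.2%, below the 42.2% of all 17714 tested genes (21.1% higher and 21% lower). Among abundant genes (mean log2 CPM 5 or above) 7 of 11 histone genes were called, against 52.2% of all genes at that level. Among sparse genes (mean log2 CPM below 2) 4 of 30 were called, against 30.8%. In entinostat, 8 of 42 were called (5 higher, 3 lower), against 39.4% of all genes (20.5% higher, 18.9% lower). The DMSO count fell furthest without either BRCA1+ DMSO library or BRCA1-null DMSO replicate 1. With these removals the count over all tested genes fell too. The entinostat count fell furthest without either BRCA1+ entinostat library or BRCA1-null entinostat replicate 1, and the count over all tested genes again fell too. The DMSO and entinostat comparisons of the lines use different libraries.

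H1F0 (22:38201114 to 38203443, hg19) encodes the linker histone H1.0, which accumulates in cells that stop dividing or differentiate. It was at 42.7 and 37.7 CPM in BRCA1+ DMSO libraries and at 84.6 and 71.8 CPM in BRCA1-null DMSO libraries. The 2 pairs did not overlap, and the BRCA1-null level was 1.95 times as high (log2 fold change 0.96 ± 0.12 SE, adjusted p = 0.000199). In entinostat the levels were 68.4 and 63.8 CPM against 98.7 and 81.3 CPM, again without overlap (log2 fold change 0.45 ± 0.11, adjusted p = 0.0115). The second call was lost without BRCA1+ entinostat replicate 2 (log2 fold change 0.39, adjusted p = 0.0883) or BRCA1-null entinostat replicate 1 (0.30, adjusted p = 0.0854). H1FX, the other stand-alone linker histone of somatic cells, did not show the same direction. Its DMSO libraries held 42.1 and 39.3 CPM in BRCA1+ and 35.2 and 34.4 CPM in BRCA1-null cells, and the difference of −0.23 ± 0.09 was not called (adjusted p = 0.0828). HIST1H1C, the only clustered linker gene tested, was at 1.70 and 1.57 CPM in BRCA1+ and 2.09 and 1.95 CPM in BRCA1-null DMSO libraries (0.30 ± 0.23, adjusted p = 0.324).

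H2AFY encodes macroH2A1, a large H2A variant of repressed chromatin, and H2AFY2 encodes the related macroH2A2. H2AFY was at 285 and 282 CPM in BRCA1+ DMSO libraries and at 172 and 174 CPM in BRCA1-null DMSO libraries. Its replicates lay close together and the lines far apart (log2 fold change −0.71 ± 0.05, adjusted p = 7.29e-06). Entinostat libraries gave 283 and 282 CPM against 181 and 182 CPM (−0.64 ± 0.05, adjusted p = 1.43e-05). H2AFY2 was higher in BRCA1-null cells, where H2AFY was lower, with 36.2 and 32.2 CPM against 43.3 and 46.5 CPM in DMSO (0.39 ± 0.11, adjusted p = 0.0155) and a log2 difference of 0.53 ± 0.11 in entinostat (adjusted p = 0.00415). Per length, H2AFY2 stood at 18.0 CPM per kilobase against 107 for H2AFY. The H2AFY2 calls were lost without BRCA1+ DMSO replicate 2 (adjusted p = 0.107), BRCA1-null DMSO replicate 2 (0.0874) or, in entinostat, BRCA1+ entinostat replicate 2 (0.0517).

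The genes around H2AFY were lower too. Of 96 tested non-histone genes within 5 Mb on either side of it on chromosome 5, 58 were lower in BRCA1-null DMSO cells and 8 higher, with a median log2 fold change of −0.55 against 0.01 over all tested genes, and in entinostat 60 were lower and 10 higher. Around H1F0 on chromosome 22, 30 of 152 neighbours were higher and 21 lower, with a median of 0.02. Higher values were the more frequent around H3F3B on chromosome 17, where 51 of 145 neighbours were higher and 15 lower (median 0.24), and around HIST3H2A on chromosome 1, where 30 of 84 were higher and 11 lower (median 0.19). Around HIST1H2BK in the large cluster on chromosome 6, 20 of 53 neighbours were lower and 4 higher in DMSO (median −0.18). Other windows also ran against their gene. Around H2AFV 19 of 64 neighbours were higher and 7 lower, and around H1FX 22 of 81 were higher and 9 lower. Around H2AFJ 17 of 63 were lower and 5 higher. Over all tested genes 21.1% were higher and 21% lower in DMSO, and 20.5% were higher and 18.9% lower in entinostat. The part of chromosomal position in the values of these genes was not tested.

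H2AFX encodes H2AX, which is phosphorylated at DNA breaks. Its DMSO libraries held 230 and 212 CPM in BRCA1+ and 163 and 173 CPM in BRCA1-null cells, without overlap (−0.40 ± 0.08, adjusted p = 0.00427). In entinostat they held 175 and 171 CPM against 128 and 152 CPM (−0.30 ± 0.08, adjusted p = 0.0175). That second call was lost without BRCA1+ entinostat replicate 1 (adjusted p = 0.0723), BRCA1+ entinostat replicate 2 (0.0636) or BRCA1-null entinostat replicate 1 (0.108). H2AFZ encodes H2A.Z, a variant found beside active start sites, and was lower in BRCA1-null DMSO cells by a smaller margin, with 312 and 341 CPM against 292 and 290 CPM (−0.17 ± 0.06, adjusted p = 0.0389). This call was lost when libraries were scaled by total counts (−0.10, adjusted p = 0.163) or upper quartiles (−0.12, adjusted p = 0.0993) and without BRCA1+ DMSO replicate 2, either BRCA1+ entinostat library or either BRCA1-null DMSO library (adjusted p = 0.0568 to 0.247). In entinostat the difference of −0.06 ± 0.06 was not called (adjusted p = 0.409). H2AFV, a close relative of H2AFZ, was called in entinostat only, at 127 and 131 CPM against 103 and 112 CPM (−0.26 ± 0.06, adjusted p = 0.00657), and its DMSO difference was −0.13 ± 0.06 (adjusted p = 0.0966). Without BRCA1+ entinostat replicate 2 or BRCA1-null entinostat replicate 1 the adjusted p of the first was 0.0519. Whether these differences changed with treatment was tested by the interaction below, which called no histone gene. It called 0 of all 17714 tested genes, so it cannot decide this.

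H2AFJ, an H2A variant gene that lies outside the large clusters, was higher in BRCA1-null cells. It was at 34.6 and 29.0 CPM against 43.8 and 39.5 CPM in DMSO (0.39 ± 0.10, adjusted p = 0.00993) and differed by 0.31 ± 0.10 in entinostat (adjusted p = 0.0309). Without BRCA1+ DMSO replicate 2 the first difference was 0.27 (adjusted p = 0.0768), and without either BRCA1+ or either BRCA1-null entinostat library the second was not called (adjusted p = 0.0565 to 0.166). H3F3A and H3F3B encode the same H3 replacement protein from different genes. H3F3B was at 321 and 331 CPM against 364 and 358 CPM in DMSO (0.14 ± 0.05, adjusted p = 0.0387) and differed by 0.19 ± 0.05 in entinostat (adjusted p = 0.0127). The DMSO call did not survive the removal of any 1 library (adjusted p = 0.0505 to 0.174), and the entinostat call was lost without BRCA1+ entinostat replicate 1 (adjusted p = 0.118) or BRCA1-null entinostat replicate 1 (0.0516). H3F3A was not called in either treatment, with differences of 0.07 ± 0.05 (adjusted p = 0.302) and 0.14 ± 0.05 (adjusted p = 0.0524).

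**Figure D3:**
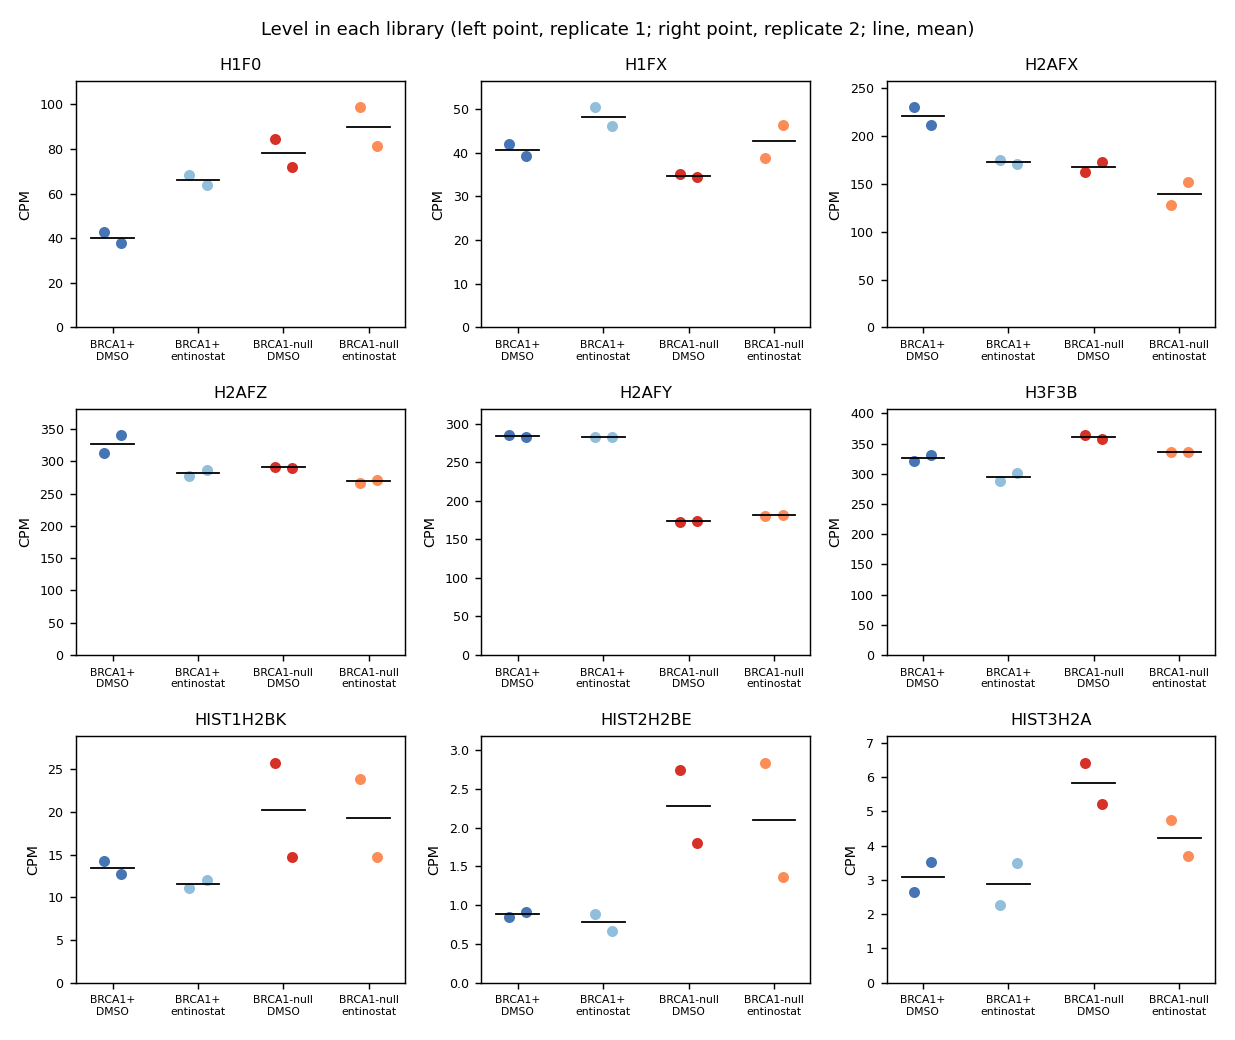
Each panel shows one histone gene in CPM on an axis from 0, with the 2 libraries of each of the 4 groups as points and their mean as a line. H1F0 is lowest in BRCA1+ DMSO cells (42.7 and 37.7 CPM), and H2AFY splits by line at about the same level in both treatments. In the bottom row, the BRCA1-null points of HIST1H2BK and HIST2H2BE lie far apart.

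Of 29 tested clustered core genes, 4 were called in DMSO, all 4 higher in BRCA1-null cells. This is 13.8%, below the 42.2% of all tested genes (21.1% higher) and the 30.8% of sparse genes. HIST2H2BE, an H2B gene whose model runs past the stem-loop, was at 0.850 and 0.915 CPM in BRCA1+ and at 2.75 and 1.80 CPM in BRCA1-null libraries (log2 fold change 1.34 ± 0.40, adjusted p = 0.0237). It was the one clustered gene called in entinostat as well, at 0.883 and 0.668 CPM against 2.84 and 1.36 CPM (1.495 ± 0.438, adjusted p = 0.0230). The entinostat call was lost without BRCA1+ entinostat replicate 1 (adjusted p = 0.0610), BRCA1+ entinostat replicate 2 (0.167) or BRCA1-null entinostat replicate 1 (0.179). HIST3H2A, an H2A gene of the small cluster on chromosome 1, was at 2.65 and 3.53 CPM against 6.42 and 5.22 CPM in DMSO (0.89 ± 0.23, adjusted p = 0.0113). HIST1H3H (1.98 ± 0.67, adjusted p = 0.0374) and HIST1H2BN (1.44 ± 0.49, adjusted p = 0.0387) rested on few reads, with 5 and 4 against 25 and 17 counts for HIST1H3H and 6 and 4 against 17 and 15 counts for HIST1H2BN. In each of these 4 genes the BRCA1-null library numbered 1 was the higher one. Without BRCA1-null DMSO replicate 1 none of the 4 was called, with adjusted p of 0.102 for HIST2H2BE, 0.0505 for HIST3H2A, 0.145 for HIST1H3H and 0.125 for HIST1H2BN. Removal of BRCA1+ DMSO replicate 1 had the same effect, with adjusted p of 0.0903, 0.0738, 0.0954 and 0.0689. Without BRCA1+ DMSO replicate 2, HIST3H2A kept its call and the others had adjusted p of 0.0950, 0.179 and 0.227.

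The remaining abundant clustered genes were not called between the lines in DMSO. HIST1H2BK was at 14.2 and 12.7 CPM in BRCA1+ and 25.8 and 14.7 CPM in BRCA1-null cells (0.58 ± 0.27, adjusted p = 0.120), so its groups did not overlap but the BRCA1-null libraries lay far apart. HIST1H2BD differed by 0.75 ± 0.36 (adjusted p = 0.118) and HIST1H4I by 0.80 ± 0.42 (adjusted p = 0.152). HIST1H2BC differed by 0.65 ± 0.46, HIST1H2AC by 0.23 ± 0.34, HIST2H2BC by −0.04 ± 0.20 and HIST1H4C by −0.41 ± 0.48. Over the 29 clustered core genes the median log2 fold change was 0.43 in DMSO (20 positive, 9 negative) and 0.33 in entinostat (22 positive, 7 negative), beside 0.01 and 0.02 over all tested genes. Without BRCA1-null DMSO replicate 1 the DMSO median was 0.0068, and without BRCA1-null entinostat replicate 1 the entinostat median was 0.0010. The 9 replacement symbols had medians of 0.07 and 0.14, which were −0.03 and 0.04 without the duplicate entry H3F3AP4.

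**Figure D4:**
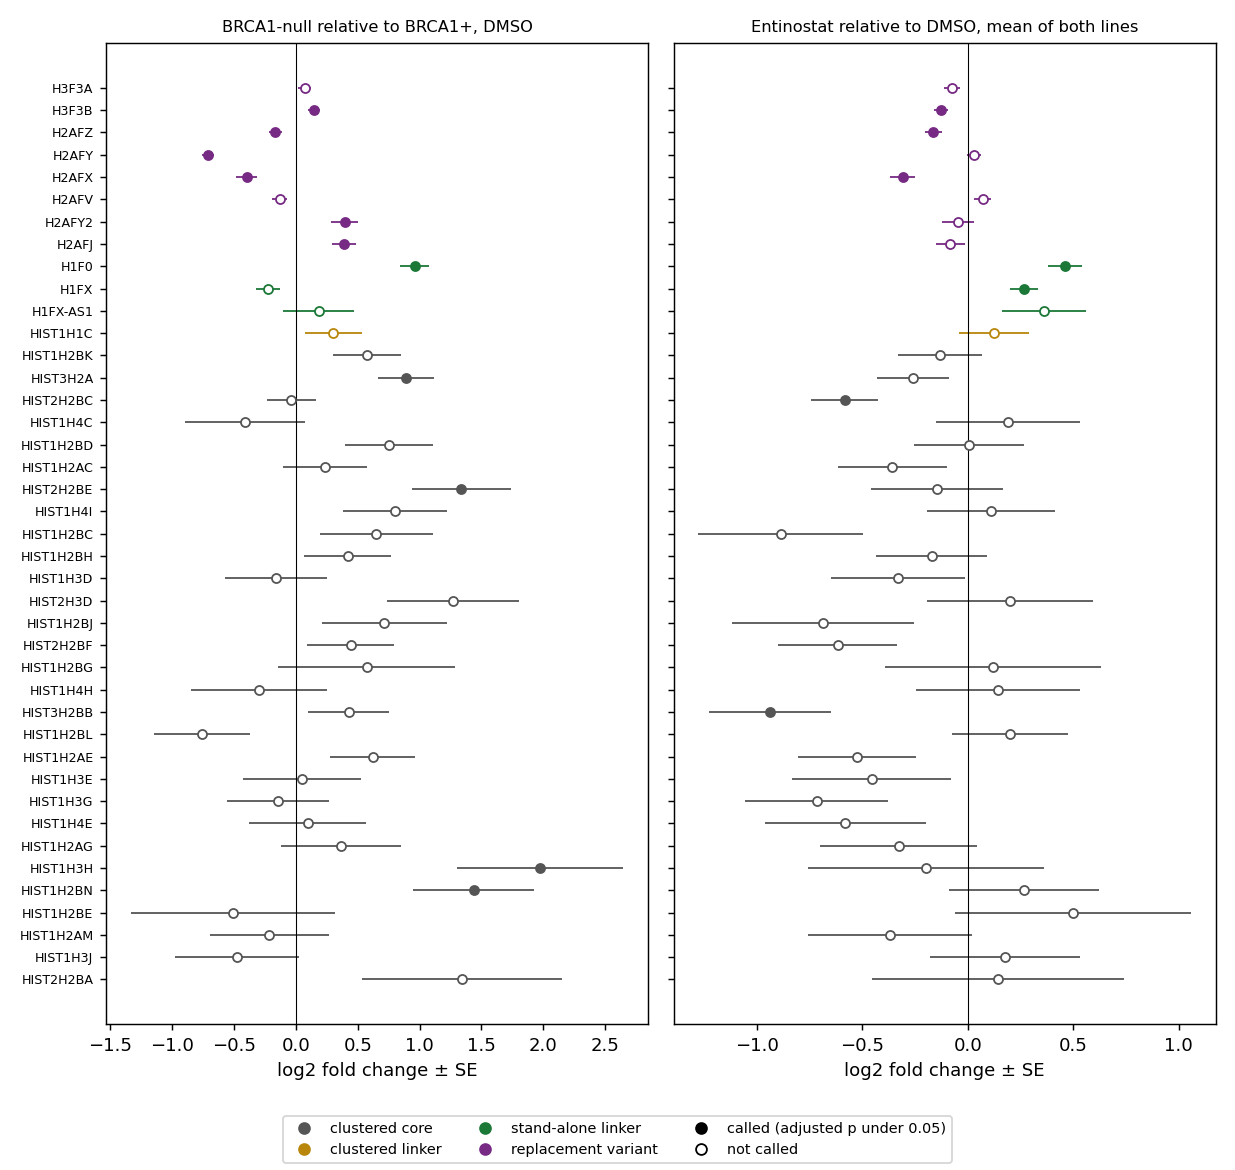
Points give the log2 fold change and bars its SE from the edgeR fit for 41 tested histone symbols (H3F3AP4, which repeats H3F3A, is left out), on the left for BRCA1-null relative to BRCA1+ in DMSO and on the right for entinostat relative to DMSO as the mean of both lines. Filled points have an adjusted p under 0.05. Replacement variants and H1F0 have short bars, and clustered core genes have wide ones, with HIST1H3H (1.98) the furthest to the right.

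Entinostat raised the linker histone gene H1F0 in BRCA1+ cells and lowered H2AFX and H2AFZ there. These 3 were the only histone genes called in that line (1 higher and 2 lower of 42), which is 7.14%, against 14.1% of all tested genes (8.13% higher, 6% lower). In BRCA1-null cells edgeR called 0 of 42, against 10.8% of all genes, while 4 had an unadjusted p under 0.05 and the DESeq2 Wald test called 1. With both lines averaged, which uses all 8 libraries, 7 of 42 were called (16.7%, 2 higher and 5 lower), against 26.1% of all genes (15.2% higher, 10.9% lower). In that average 32.8% of all abundant genes and 16.7% of all sparse genes were called, by the same limits on mean log2 CPM. The count in BRCA1+ cells fell furthest without BRCA1+ DMSO replicate 2 or either BRCA1+ entinostat library. The averaged count fell with the removal of any 1 library. With each of these removals the count over all tested genes fell too. In BRCA1-null cells 1 gene was called without BRCA1-null entinostat replicate 2. The comparisons with DMSO share the control libraries with the line comparison.

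H1F0 rose in BRCA1+ cells from 42.7 and 37.7 CPM to 68.4 and 63.8 CPM, a 1.64-fold increase (0.72 ± 0.12, adjusted p = 0.00593). In BRCA1-null cells, where it started higher, it went from 84.6 and 71.8 CPM to 98.7 and 81.3 CPM, with overlapping pairs (0.20 ± 0.11, adjusted p = 0.271). The average over both lines was 0.46 ± 0.08 (adjusted p = 0.00363). The level in treated BRCA1+ cells was still below both untreated BRCA1-null libraries. The difference between the 2 responses was −0.51 ± 0.16 and was not called (unadjusted p = 0.0110, adjusted p = 0.967). The libraries of each number gave log2 ratios of 0.68 and 0.76 in BRCA1+ and of 0.22 and 0.18 in BRCA1-null cells. When the replicate number was added to the fit, the rise in BRCA1-null cells was called as well, as given in the part on processing.

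H1FX rose when both lines were averaged (0.27 ± 0.07, adjusted p = 0.0175), although neither line alone was called. It went from 42.1 and 39.3 to 50.4 and 46.1 CPM in BRCA1+ cells (0.24 ± 0.09, adjusted p = 0.125) and from 35.2 and 34.4 to 38.9 and 46.5 CPM in BRCA1-null cells (0.29 ± 0.09, adjusted p = 0.0797). The groups of each line did not overlap, and the averaged call was lost without BRCA1+ DMSO replicate 2 (adjusted p = 0.0587), BRCA1+ entinostat replicate 1 (0.0687) or BRCA1-null DMSO replicate 2 (0.0515). H1FX-AS1, whose gene model begins on the opposite strand within the first bases of H1FX, gave 0.36 ± 0.20 (adjusted p = 0.218). HIST1H1C gave 0.13 ± 0.17 (adjusted p = 0.626).

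H2AFX fell in BRCA1+ cells from 230 and 212 CPM to 175 and 171 CPM (−0.36 ± 0.08, adjusted p = 0.0241). In BRCA1-null cells it went from 163 and 173 CPM to 128 and 152 CPM, also without overlap (−0.26 ± 0.08, adjusted p = 0.0786), and the average of −0.31 ± 0.06 was called (adjusted p = 0.00549). The call in BRCA1+ cells was lost without any 1 of its 4 libraries (adjusted p = 0.0538 to 0.134), whereas the averaged call held in each of the 17 alternatives tried. H2AFZ fell in BRCA1+ cells from 312 and 341 CPM to 277 and 286 CPM (−0.21 ± 0.06, adjusted p = 0.0346), went from 292 and 290 CPM to 267 and 272 CPM in BRCA1-null cells (−0.11 ± 0.06, adjusted p = 0.228) and averaged −0.16 ± 0.04 (adjusted p = 0.0153). The BRCA1+ call for H2AFZ was lost without BRCA1+ DMSO replicate 2 (−0.15, adjusted p = 0.195), either BRCA1+ entinostat library or either BRCA1-null DMSO library (adjusted p = 0.0509 to 0.189), and the averaged call without that library (adjusted p = 0.0503) or BRCA1+ entinostat replicate 1 (0.0596). H3F3B fell on average by 0.13 ± 0.03 on the log2 scale (adjusted p = 0.0261), a call that was lost with upper-quartile scaling (adjusted p = 0.0613) and without 6 of the 8 libraries one at a time. H3F3A averaged −0.07 ± 0.04 (adjusted p = 0.168). The other replacement variants were not called, with averages of 0.03 ± 0.03 for H2AFY, −0.05 ± 0.08 for H2AFY2, −0.08 ± 0.07 for H2AFJ and 0.07 ± 0.04 for H2AFV.

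No clustered gene was called in either line alone after entinostat. In the average 2 H2B symbols fell, which is 6.90% of the 29 clustered core genes. This compares with 26.1% of all tested genes and 16.7% of sparse ones. Of these symbols, HIST2H2BC was not among the members matched to the coding annotation, and it lies within the span listed for HIST2H2AA3 and HIST2H2AA4. HIST2H2BC was at 3.73 and 3.42 CPM in BRCA1+ DMSO and 2.33 and 2.35 CPM in BRCA1+ entinostat libraries, and at 4.20 and 2.85 against 2.52 and 2.18 CPM in BRCA1-null libraries (average −0.58 ± 0.16, adjusted p = 0.0250). HIST3H2BB, the H2B partner of HIST3H2A, was at 15 and 22 against 4 and 9 counts in BRCA1+ and at 23 and 35 against 21 and 15 counts in BRCA1-null libraries (average −0.94 ± 0.29, adjusted p = 0.0402). The HIST2H2BC call was lost without either BRCA1+ DMSO library, either BRCA1+ entinostat library or BRCA1-null entinostat replicate 2 (adjusted p = 0.0527 to 0.0811). The HIST3H2BB call was lost without any library other than BRCA1-null DMSO replicate 1 (adjusted p = 0.0628 to 0.140) and with the DESeq2 Wald test (adjusted p = 0.209). HIST1H2BK averaged −0.13 ± 0.20, HIST3H2A −0.26 ± 0.17, HIST1H2AC −0.36 ± 0.26, HIST1H2BC −0.89 ± 0.39, HIST2H2BE −0.15 ± 0.31, HIST1H4C 0.19 ± 0.34, HIST1H4I 0.11 ± 0.30 and HIST1H2BD 0.01 ± 0.26, and none of these was called. The median over the 29 clustered core genes was −0.09 in BRCA1+ and −0.24 in BRCA1-null cells (21 of 29 negative in each), beside 0.00041 and 0.02 over all genes. The BRCA1-null median turned positive without BRCA1-null DMSO replicate 1 (0.19) or BRCA1-null entinostat replicate 2 (0.09). Since the BRCA1-null library numbered 1 held more clustered RNA in both treatments, these removals also leave the numbers unequal between treatments. Within each number the clustered sum was lower after entinostat. The replacement symbols had medians of −0.11 and −0.04.

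The interaction, which compares the response to entinostat in BRCA1-null cells with that in BRCA1+ cells, was called for 0 of 42 histone genes with edgeR and for 0% of all tested genes. Only H1F0 (1 of 42) had an unadjusted p under 0.05, the smallest adjusted p among histone genes was 0.967, and the DESeq2 Wald test called 0. A call in one line and not in the other is therefore not shown to be a difference between the lines.

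The genes whose level followed that of H1F0 most closely over the 8 libraries were sought among the 10405 genes whose mean log2 CPM was 3 or above. They were BCAM (Pearson r = 0.984), TSPAN9 (0.984), ALDH2 (0.982), CADM1 (0.981) and MERTK (0.981). The 8 libraries fall into 4 groups, so these values describe a shared order of groups and not 8 independent points. Since the genes were chosen for following H1F0, their differences are a description with no test: they lay 0.44 to 0.86 above BRCA1+ in BRCA1-null DMSO cells on the log2 scale, and 0.33 to 0.69 above DMSO in BRCA1+ entinostat cells.

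Genes that make and handle histones were listed by role. Of 20 genes of histone mRNA 3′ processing and the histone locus body, 2 were higher and 7 lower in BRCA1-null DMSO cells (median −0.10). Those called made up 45% of the list, beside 42.2% of all tested genes, which is near the background. SLBP, the stem-loop binding protein, was higher (0.18 ± 0.06, adjusted p = 0.0463), and NPAT, the coactivator of clustered histone genes, was lower (−0.31 ± 0.07, adjusted p = 0.00648). The largest differences of this list were CSTF2, a polyadenylation factor (0.61 ± 0.07), ZNF473, a component of the U7 snRNP pathway (−0.46 ± 0.10), and LSM11, a U7 snRNP protein (−0.38 ± 0.10). After entinostat 0 rose and 5 fell in BRCA1+ cells and 0 rose and 2 fell in BRCA1-null cells, which is 25% and 10% of the list beside 14.1% and 10.8% of all tested genes. UPF1, a helicase needed for histone mRNA decay, fell in both (−0.37 ± 0.07 and −0.28 ± 0.07), as did the cleavage factor gene CPSF2 (−0.35 ± 0.06 and −0.26 ± 0.06), and ZCCHC8, an RNA exosome cofactor, fell in BRCA1+ cells (−0.28 ± 0.07). SLBP and NPAT were not called after entinostat in either line (adjusted p = 0.512 and 0.790 in BRCA1+, 0.855 and 0.850 in BRCA1-null).

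Of 24 tested genes of histone chaperones and exchange, 3 were higher and 9 lower in BRCA1-null DMSO cells (median −0.10), so 50% were called beside 42.2% of all tested genes and 52.2% of the abundant ones (mean log2 CPM 5 or above). ATRX, which places the H3 replacement protein at repeats, was higher (0.85 ± 0.06). The H3 and H4 chaperone genes ASF1A (−0.75 ± 0.09) and NASP (−0.68 ± 0.06) were lower. Entinostat lowered 1 of the 24 in each line, SRCAP, the ATPase that exchanges H2A for H2A.Z (−0.50 ± 0.06 in BRCA1+ and −0.36 ± 0.06 in BRCA1-null, adjusted p = 0.00156 and 0.00772). This is 4.17% of the list in each line, beside 14.1% and 10.8% of all tested genes. With both lines averaged, 1 was higher and 7 lower. That is 33.3%, beside 26.1% of all tested genes and 32.8% of the abundant ones.

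Genes of S phase and proliferation were listed as well. Of 23, 0 were higher and 12 lower in BRCA1-null DMSO cells (median −0.30), among them RRM2 (−0.57 ± 0.06), which serves nucleotide supply, and GINS2 (−0.49 ± 0.09), which serves DNA replication. The share called was 52.2%, beside 42.2% of all tested genes and 52.2% of the abundant ones, and the share lower over all tested genes was 21%. The clustered core median in the same comparison was 0.43. After entinostat 1 rose and 7 fell in BRCA1+ cells, and 1 rose and 3 fell in BRCA1-null cells, which is 34.8% and 17.4% of the list beside 14.1% and 10.8% of all tested genes. The gene that rose in both was CDKN1A, a cyclin-dependent kinase inhibitor (1.69 ± 0.21 and 1.22 ± 0.20). RRM2 fell in both (−0.42 ± 0.06 and −0.38 ± 0.06), MCM5 in BRCA1+ (−0.37 ± 0.08) and MCM4 in BRCA1-null cells (−0.29 ± 0.06). The part of S phase share in the histone values was not tested.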

How the data were processed

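Poly(A) RNA was sequenced from 8 libraries in 4 groups of 2. Per the labels and the methods, the authors used TopHat for alignment (hg19) and NGSUtils for gene quantification, and deposited whole-number counts per gene for each library with no normalization. Whether counting used strand, and how reads with several positions were treated, is not given in the sources used here.

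From these counts, 17714 genes passed edgeR's filterByExpr, given the 4 groups. Libraries were scaled by TMM, which also gives the CPM, and tested with the edgeR (4.0.16, R 4.3.3) quasi-likelihood test on 1 mean per group with 4 residual degrees of freedom. Tests were two-sided, with Benjamini-Hochberg adjustment over all tested genes and a threshold of 0.05. The fit was tested on simulated counts. One entry without a gene name held 0 counts. CPM per kilobase divides CPM by the length of the gene model in the counts table. Alternatives were other scalings, filters and tests (DESeq2 1.42.0), a replicate block and leaving out each library. With totals of 31900158 to 53549893 counts, 3 counts equal 0.0552 to 0.0946 CPM.

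All H1F, H2AF and H3F genes that passed the filter were named, with the 10 clustered genes of highest CPM, up to 3 called clustered genes per direction and comparison, and up to 3 called genes per context list and comparison (plus SLBP, NPAT and CDKN1A). One item that this rule would name is not reported here. Sequences were read from GRCh37 with GENCODE v44lift37. RefSeq names linked older to current symbols. The members and lists were chosen with earlier results of these data known.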

Additional observations from a re-analysis of the deposited data

How the results depend on the processing

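In 29 calls of a histone gene in a comparison, 0 changed sign under up to 18 alternatives each, 22 lost the call at least once and 7 kept it in all: H1F0 between the lines in DMSO, after entinostat in BRCA1+ and on average, H2AFX between the lines in DMSO and on average after entinostat, and H2AFY between the lines in both treatments. Of 223 values that were not called, 97 changed sign and 24 were called at least once. The DESeq2 Wald test called 7 histone genes between the lines in DMSO in place of 11 and 1 after entinostat in BRCA1-null cells in place of 0, and total-count scaling also called 1 there. Leaving out 1 library at a time gave 5 to 11 calls between the lines in DMSO, 2 to 10 in entinostat, 1 to 3 after entinostat in BRCA1+, 0 to 1 in BRCA1-null and 2 to 6 on average. For the clustered core median, the same removals gave 0.0068 to 0.67 between the lines in DMSO, 0.0010 to 0.67 in entinostat, −0.30 to −0.06 after entinostat in BRCA1+ and −0.65 to 0.19 in BRCA1-null. For the replacement median they gave 0.0232 to 0.117, 0.119 to 0.149, −0.155 to −0.0952 and −0.075 to −0.0378. The replacement median between the lines in DMSO was 0.11 with upper-quartile scaling, 0.13 with total counts and 0.10 with the stricter filter, and without H3F3AP4, an alternative chosen after seeing the data, it was −0.0313. In entinostat it was 0.17 with total counts and 0.0395 without H3F3AP4. After entinostat it was −0.0629, −0.0886 and −0.0871 in BRCA1+ with upper-quartile scaling, total counts and the stricter filter, and −0.0553, −0.0593 and −0.0702 in BRCA1-null with total counts, only the compared groups and without H3F3AP4. The cause of these shifts was not tested.

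Libraries of one number deviated together within a line (r = 0.72 over 10405 genes in BRCA1+ and 0.64 in BRCA1-null) and less across lines (0.23 to 0.30). With 2 numbers per group they were treated as sharing only a number. The replicate block raised the counts of calls to 15 between the lines in DMSO, 13 in entinostat, 5 after entinostat in BRCA1+, 3 in BRCA1-null and 8 on average, and left the interaction at 0. Over all 17714 tested genes the counts were 7472, 6975, 2503, 1906 and 4622 without the block, in the same order. With it they were 8956, 8398, 4314, 3640 and 6351. With the block, H1F0 was called after entinostat in BRCA1-null cells (0.20, adjusted p = 0.0318).

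The 29 clustered core genes had a median SE of 0.46 on the log2 scale in the DMSO comparison of the lines, against 0.06 for the replacement symbols, so smaller differences of clustered genes were not detectable at this depth and spread.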
